A study of Homo sapiens with 4 samples.

Results

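Attached-only peaks were the SPIB ChIP-seq peaks of attached H1703 cells that overlapped no peak of suspended cells by even 1 bp. They were selected on the overlap of the 2 deposited peak lists, on chromosomes 1 to 22, X and Y. They numbered 247 of 453 attached peaks on those chromosomes, a share of 54.5% (exact Clopper-Pearson 95% interval 49.8 to 59.2%). The other 206 attached peaks overlapped a suspended peak and are called shared. The suspended list held 8981 peaks on these chromosomes. Another 9 attached peaks lay on other sequences and were set aside.

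The cells were H1703, an established line from a human squamous carcinoma of the lung, and every library came from H1703 cells that overexpressed SPIB. ChIP used the anti-FLAG M2 antibody. Attached cells gave 1 ChIP and 1 antibody-free input library, as did suspended cells. A 24 h suspension stands in the treatment label of the attached libraries as well as the suspended ones, so the condition label alone told the groups apart. No library of cells without overexpressed SPIB was used here, and peak lists hold no expression values, so the identity of the cells was not checked. After the authors' filter the ChIP depth was 21108364 tags for attached cells, against 20766909 for suspended cells. The inputs held 15878452 tags (attached) and 21437074 tags (suspended), or 0.752 and 1.03 input tags for each ChIP tag. With 1 ChIP library per condition there was no replicate check and no test between conditions. Intervals cover counting error only, and what the smaller attached input did to the attached list was not tested.

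SPIB belongs to the ETS family of transcription factors, whose DNA-binding domain contacts a core GGAA. It is closely related to SPI1 (PU.1) and has its best-known roles in the B lineage and in plasmacytoid dendritic cells. Both prefer an adenine-rich stretch before the core, as in GAGGAA. Many other ETS factors prefer CGGAAGT, which is common at gene starts. A ChIP peak is a stretch of genome with more sequenced tags in the immunoprecipitate than in the local background, and its summit is the position of the highest pile-up.

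The promoters below were chosen because an attached-only peak lay over part of the 250 bases before a gene start. The genes span housekeeping, stress, lysosomal and signalling roles. Each line gives the part of the 250 bases before the start that the peak covered, 5′ to 3′ on the strand of the gene, from RefSeq on GRCh38.p14. Capitals mark GGAA, or TTCC where the core lies on the other strand. The windows are chr11:123062137-123062386 (HSPA8, minus strand), chr13:113296989-113297053 (LAMP1, plus), chr12:120201112-120201153 (RPLP0, minus), chr17:45148365-45148474 (HEXIM1, plus) and chr2:230712592-230712835 (CAB39, plus). The others are chr2:206274459-206274662 (ZDBF2, plus), chr3:172711068-172711298 (NCEH1, minus), chr14:49892880-49893081 (ARF6, plus), chr4:183444567-183444635 (CDKN2AIP, plus) and chr15:41402497-41402625 (NDUFAF1, minus).
HSPA8: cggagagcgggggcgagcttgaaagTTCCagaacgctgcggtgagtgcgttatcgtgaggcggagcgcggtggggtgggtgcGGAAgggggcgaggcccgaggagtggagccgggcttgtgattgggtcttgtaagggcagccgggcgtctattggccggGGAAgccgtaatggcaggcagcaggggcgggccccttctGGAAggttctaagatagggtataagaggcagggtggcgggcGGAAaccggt
LAMP1: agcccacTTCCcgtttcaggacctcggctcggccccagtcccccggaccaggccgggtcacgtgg
RPLP0: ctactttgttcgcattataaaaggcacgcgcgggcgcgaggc
HEXIM1: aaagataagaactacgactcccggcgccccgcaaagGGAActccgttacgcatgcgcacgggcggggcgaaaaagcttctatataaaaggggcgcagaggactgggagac
CAB39: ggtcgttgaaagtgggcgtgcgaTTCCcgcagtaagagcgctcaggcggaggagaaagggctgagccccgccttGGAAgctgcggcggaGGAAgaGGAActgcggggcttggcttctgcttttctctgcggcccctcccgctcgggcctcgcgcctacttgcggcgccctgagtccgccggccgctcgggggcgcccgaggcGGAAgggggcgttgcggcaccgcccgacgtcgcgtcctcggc
ZDBF2: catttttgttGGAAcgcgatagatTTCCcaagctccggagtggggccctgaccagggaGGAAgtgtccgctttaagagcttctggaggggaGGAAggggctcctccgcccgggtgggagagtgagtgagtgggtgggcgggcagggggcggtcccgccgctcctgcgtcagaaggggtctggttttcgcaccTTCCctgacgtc
NCEH1: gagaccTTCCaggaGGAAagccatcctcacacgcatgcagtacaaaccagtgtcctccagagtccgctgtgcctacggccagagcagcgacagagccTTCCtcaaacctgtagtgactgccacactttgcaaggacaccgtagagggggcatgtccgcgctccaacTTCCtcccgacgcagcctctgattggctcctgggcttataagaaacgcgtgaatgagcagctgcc
ARF6: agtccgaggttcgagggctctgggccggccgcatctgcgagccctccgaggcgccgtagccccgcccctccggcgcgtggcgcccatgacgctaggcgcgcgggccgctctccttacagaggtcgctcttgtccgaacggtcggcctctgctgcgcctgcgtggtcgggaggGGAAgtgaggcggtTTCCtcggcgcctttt
CDKN2AIP: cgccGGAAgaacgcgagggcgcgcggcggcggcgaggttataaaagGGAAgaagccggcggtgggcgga
NDUFAF1: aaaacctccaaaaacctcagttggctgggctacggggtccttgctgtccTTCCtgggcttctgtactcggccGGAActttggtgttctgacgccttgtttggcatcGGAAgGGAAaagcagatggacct

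HSPA8 encodes the constitutive HSC70 chaperone, and its printed stretch held 5 cores. CAB39, a scaffold that activates the kinase STK11, also held 5, among them neighbouring GAGGAA copies. ZDBF2, an imprinted zinc finger gene, held 5 as well, and NCEH1, a neutral cholesterol ester hydrolase, held 4. NDUFAF1, an assembly factor of respiratory complex I, held 4. ARF6, a small GTPase of membrane traffic, and CDKN2AIP, a partner of the ARF tumour suppressor, held 2 each. LAMP1, a glycoprotein of the lysosomal membrane, and HEXIM1, an inhibitor of the elongation factor P-TEFb, held 1 each. RPLP0, a protein of the ribosomal stalk, held none in the 42 printed bases. The number of cores thus differed widely between promoters that all carried an attached-only peak, over printed stretches of 42 to 250 bases.

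The strength of the attached-only peaks was described first. Their median tag count was 12 (quartiles 11 and 18, range 8 to 74), against 25 in shared attached peaks (quartiles 19 and 34, range 8 to 202). The smallest peak in the suspended list also held 8 tags, and 35 attached-only peaks held exactly 8, against 2 shared peaks. Attached-only peaks thus lay mostly at the low end of the attached list: 128 of 247 (51.8%) held at most 12 tags, against 10 of 206 shared peaks (4.85%). Median width was 205 bp (range 72 to 1011) in attached-only peaks and 324 bp (range 65 to 2375) in shared peaks. Summed over peaks, attached-only peaks held 3734 tags in 57.34 kb, or 6.51 tags per 100 bp, and shared peaks 6137 tags in 74.1 kb, or 8.28 tags per 100 bp. These quantities are not independent of the selection and are given as a description.

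Fold enrichment over the local background did not follow the tag count. The median authors' fold was 16.16 (range 5.35 to 35.29) in attached-only peaks and 14.23 (range 5.58 to 53.05) in shared peaks. Among attached-only peaks the median fold was 21.17 at 8 to 10 tags, 17.54 at 11 to 12, 14.97 at 13 to 18, 11.26 at 19 to 27 and 8.62 at 28 or more. The median fold of attached-only peaks was thus lower in each higher class of tag count, while single peaks departed from this order, since the highest fold was 34.48 at 13 to 18 tags and 27.03 at 11 to 12 tags. The fold was also often tied, since 153 of the 247 peaks had exactly the fold of another attached-only peak. The value 21.17 occurred in 20 attached-only peaks of 8 to 12 tags and in 1 shared peak, and 24.7 in 12 attached-only peaks of 8 to 11 tags and in 0 shared peaks.

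**Figure D1:**
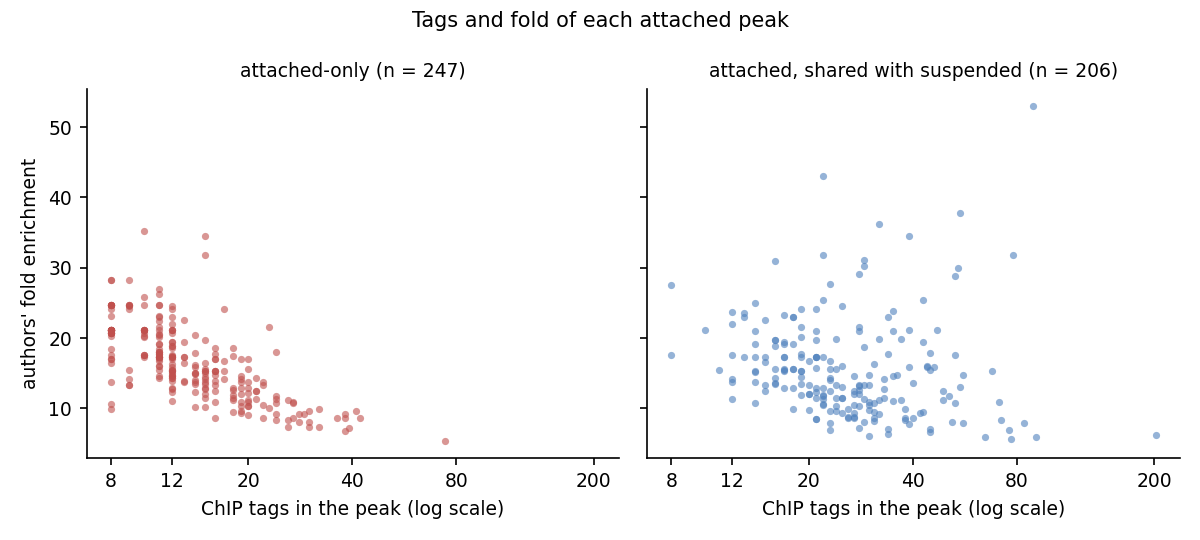
Fold enrichment against ChIP tags (log axis) for each attached peak, attached-only on the left and shared on the right. The attached-only peaks crowd at 8 to 18 tags, with folds up to 35.29, while peaks above 74 tags were all shared.

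The authors' false discovery rate (FDR), a percent obtained by exchanging ChIP and input, was 100% for 215 attached-only peaks (87.0%, 82.2 to 91.0%) and for 88 shared peaks (42.7%, 35.9 to 49.8%). It was at most 20% for 5 attached-only and 57 shared peaks, and at most 10% for 0 attached-only and 35 shared peaks. No attached-only peak had an FDR below 17.31%. The authors' score, minus 10 times the log10 of the peak p-value, had a median of 54.71 (quartiles 51.95 and 59.49) in attached-only peaks and 66.89 (quartiles 58.41 and 91.52) in shared peaks, and the lowest score among attached-only peaks was 50.02. The attached-only set was thus made largely of calls near the authors' cutoff.

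The share of attached peaks that were attached-only fell with every step in tag count. It was 60 of 63 peaks at 8 to 10 tags (95.2%), 68 of 75 at 11 to 12 tags (90.7%) and 61 of 101 at 13 to 18 tags (60.4%). It was 42 of 110 at 19 to 27 tags (38.2%) and 16 of 104 at 28 to 202 tags (15.4%). So 16 attached-only peaks held tag counts in the top class, where most attached peaks were shared.

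**Figure D2:**
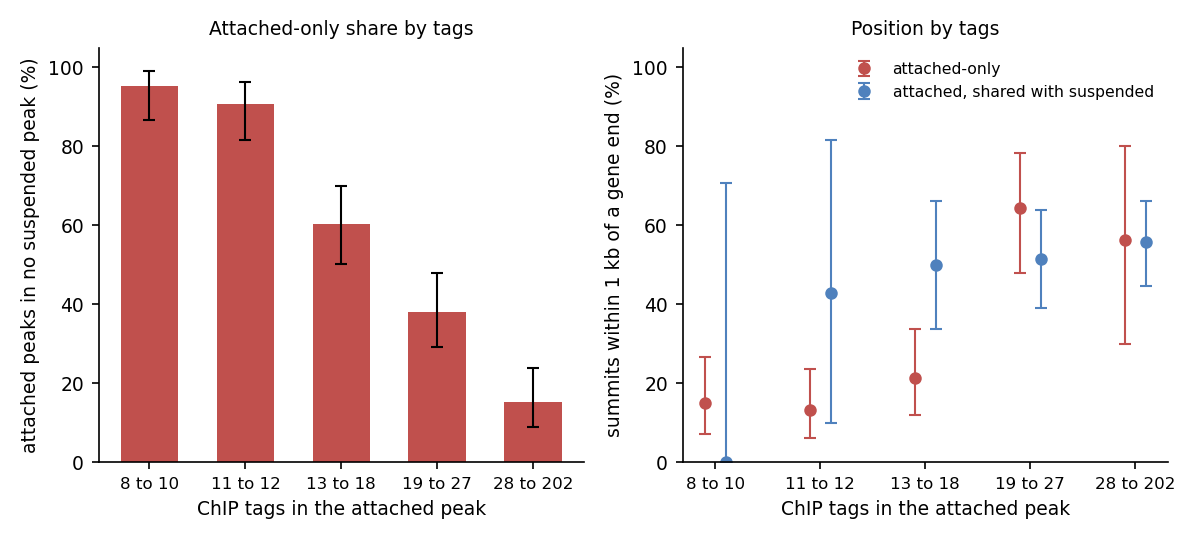
Left, share of attached peaks that were attached-only in 5 classes of tag count, with exact binomial 95% intervals. Right, share of attached-only and of shared peaks with a summit within 1 kb of a gene end in the same classes. The left share drops from 95.2% at 8 to 10 tags to 15.4% at 28 tags or more, and on the right attached-only peaks lie at 64.3% and shared peaks at 51.5% in the class of 19 to 27 tags.

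The attached-only peak with most tags lay at USP5, a deubiquitinase of free ubiquitin chains, GNB3, a G protein beta subunit, and CDCA3, a regulator of mitotic entry. It covered chr12:6852032-6853042, with 74 tags (exact Poisson 95% interval 58.1 to 92.9) and a fold of 5.35. It was also the widest attached-only peak, at 1011 bp, and had the lowest fold of all 247. Its nearest suspended peak, 11869 bp away, held 37 tags (26.1 to 51.0). A peak inside LPCAT1, which encodes a lysophosphatidylcholine acyltransferase, held 42 tags at chr5:1515144-1515624. One over ZFAND3-DT and ZFAND3 held 41 tags (562 bp wide) and one before HDHD3 held 39 (597 bp). Many tags thus went with a low fold in these attached-only peaks, none of which reached a fold of 10.

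Peaks inside CYRIB, a RAC1-binding inhibitor of actin branching, and at the start of HEXIM1 held 38 tags each. A peak at the start of the uncharacterised gene LOC101927060 also held 38 tags, over 630 bp at chr17:47100023-47100652, with a fold of 9.24. That peak had the lowest FDR of all attached-only peaks, 17.31%. At MTRR, which encodes methionine synthase reductase, the peak held 36 tags over 554 bp. A peak inside MYO10, a myosin of filopodia, held 32 tags. A peak 34703 bp before TRIO, a guanine nucleotide exchange factor, also held 32. Of these 10 tallest peaks, 4 lay on chromosome 5, at LPCAT1, MTRR, MYO10 and TRIO.

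The highest fold, 35.29, belonged to an 89 bp peak at chrX:154885653-154885741 in F8, the gene of coagulation factor VIII. It held only 10 tags (4.80 to 18.4), and its FDR was 18.52%. It also lay next to H2AB1 and F8A1, genes with near-identical copies elsewhere on the X chromosome, so its tags cannot be placed with certainty. A peak 38654 bp from LINC01648 had a fold of 34.48 and 15 tags, with an FDR of 18.75%. A peak 63452 bp from GAD2, which encodes a glutamate decarboxylase of GABA neurons, had a fold of 31.76 and 15 tags, with an FDR of 23.38%. These 3 peaks of highest fold held 10 to 15 tags.

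The next 3 in fold all stood at 28.23, with 8 tags inside LOC124900950, 8 tags 10134 bp from GPR37, an orphan receptor gene, and 9 tags at TMEM167A and SCARNA18. After them came a peak 4019 bp from LOC105377535 at 27.03 and one 219830 bp from KHDRBS2 at 26.21, each with 11 tags. A peak in the pseudogene SDHAP4 had 25.86 and 10 tags, and as a copy of SDHA its tags are likewise uncertain in place. The 12 peaks tied at 24.7 followed. Apart from those at F8 and TMEM167A, none of the 9 peaks of highest fold lay within 1 kb of a gene end.

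Some peaks with lower FDR values held more tags. The peak near the start of DNAJC6, which encodes the uncoating factor auxilin, had its summit 391 bp after that start. Its FDR was 17.78%, with 23 tags (14.6 to 34.5) and a fold of 21.55. The peak at the start of WDCP had 23.75%, 24 tags and a fold of 17.96, and the HSPA8 peak 27.71%, 27 tags and a fold of 10.97. The peak at RTN2, a reticulon gene of the endoplasmic reticulum, had 33.72%, 20 tags and a fold of 15.67. These 4 lay within 1 kb of a gene start. The others among the 10 lowest values lay between genes, 125304 bp from LOC124900225 (18.03%, 17 tags) and 14700 bp from LOC124900928 near the end of chromosome 5 (22.54%, 13 tags), beside those at LOC101927060, F8, LINC01648 and GAD2 given above.

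The distance from attached-only peaks to suspended peaks was measured next. The median gap to the nearest suspended peak was 71242 bp, against 38902.5 bp from a shared peak to the nearest suspended peak that it did not overlap. Of the attached-only peaks, 16 (6.48%, 3.75 to 10.3%) lay under 1 kb from a suspended peak, 18 at 1 to 10 kb, 112 (45.3%) at 10 to 100 kb, 94 (38.1%) at 100 kb to 1 Mb and 7 beyond 1 Mb. For shared peaks these counts were 18, 31, 96, 58 and 3. Most attached-only peaks thus had no suspended call within 10 kb, and a small group lay under 1 kb from one. The suspended list held 2.91 peaks per Mb, and no distance for randomly placed sites was computed. The gaps therefore do not show that attached-only peaks were isolated.

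**Figure D3:**
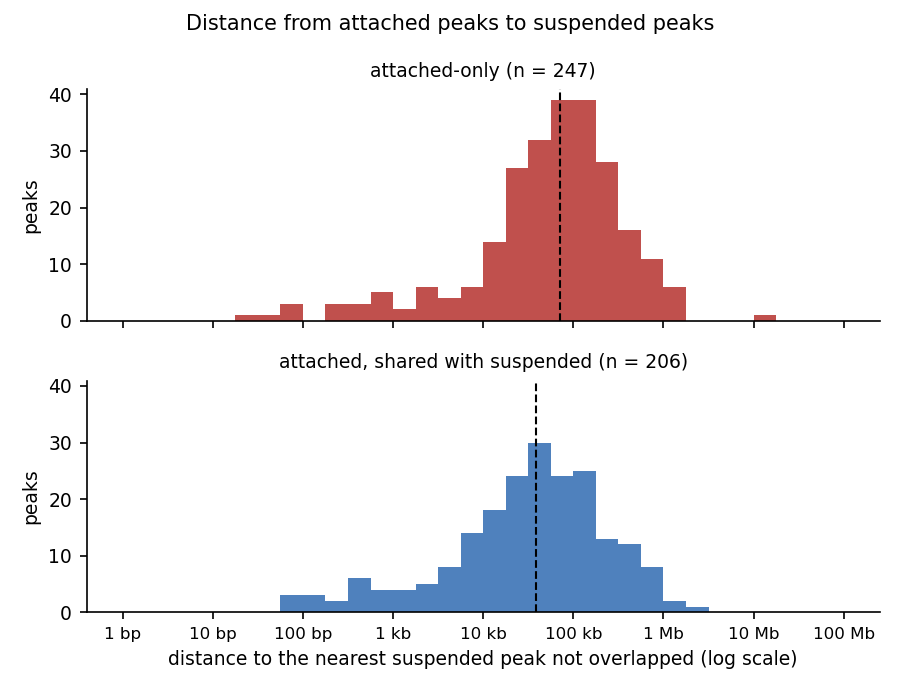
Number of attached-only (top) and shared (bottom) peaks by distance to the nearest suspended peak that they do not overlap (log axis). The dashed lines mark the medians, 71242 bp in attached-only peaks and 38902.5 bp in shared peaks.

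At the edge of the selection, the nearest attached-only peak missed its suspended neighbour by 20 bp. It lay at SLCO1A2, an organic anion transporter gene, with 11 tags (5.49 to 19.7) in the attached peak and 9 (4.12 to 17.1) in the suspended one. The gap was 32 bp at RABGEF1, an activator of the endosomal GTPase RAB5, with 24 tags attached and 40 suspended. The gap was 60 bp at HSPA8, with 27 tags attached (17.8 to 39.3) and 35 suspended (24.4 to 48.7). At GPR137B, a lysosomal membrane protein gene, it was 81 bp with 21 tags attached and 23 suspended, and at ZG16B and PRSS30P 97 bp with 13 and 20 tags. At all 5 sites the counting intervals of the attached and the suspended peak overlapped.

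Just inside the shared set, the smallest overlap was 24 bp at ARHGAP40, with 8 tags in the attached and 12 in the suspended peak. Overlaps of 65 bp at LOC105370232 (8 and 8 tags), 73 bp at KCNG3 (32 and 35), 91 bp at ZNF142 (22 and 19) and 108 bp at LOC105370645 (18 and 14) followed. These overlaps were the smallest in bp, and not all of them were partial. The attached peak at LOC105370232 was 65 bp wide and lay wholly inside its suspended peak. At LOC105370645 the 108 bp overlap took nearly all of a suspended peak of 109 bp. No suspended tag count is given where no suspended peak was called.

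Of the 16 attached-only peaks under 1 kb from a suspended peak, 11 had a summit within 1 kb of a gene start. Their median was 20.5 tags, and their suspended neighbours had a median of 24. The attached peak held fewer tags than its neighbour at 10 sites, more at 5 and as many at 1. More tags in the attached peak were found at HEXIM1 (38 against 35 tags, 370 bp apart) and at ZFAND3 (41 against 32, 839 bp apart). The same held at HHAT (23 against 14, 458 bp apart), LINC00696 (18 against 11, 699 bp apart) and SLCO1A2 (11 against 9). At ISL2, a LIM homeobox gene of motor neurons, both peaks held 16 tags, 344 bp apart. At CPNE8, a copine gene, the attached peak held 11 tags (5.49 to 19.7) and the suspended one 36 (25.2 to 49.8), 196 bp apart. These were gene regions called in both conditions with non-overlapping peak bounds.

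The 3 attached-only peaks farthest from a suspended peak were weak. The farthest lay on chromosome Y, 32242 bp from the pseudogene PARP4P1 and 15346243 bp from the nearest suspended peak, with 9 tags. Only 4 suspended peaks were called on that chromosome. The next lay inside AGBL1, a carboxypeptidase gene, 1445128 bp away with 8 tags, and inside MRTFB, a coactivator of serum response factor, 1362903 bp away with 8 tags.

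The position of attached-only peaks relative to genes was read from summits, with genes from a RefSeq table on GRCh38.p14 that gives spans without exons. Of the 247 peaks, 67 (27.1%, 21.7 to 33.1%) lay within 1 kb of a gene end, which is either the start or the finish of a gene. Another 110 (44.5%) lay inside a gene, 83 of them in a protein-coding one, and 70 (28.3%) lay between genes. In shared peaks the counts were 107 (51.9%, 44.9 to 58.9%), 54 (26.2%) and 45 (21.8%). The intervals for gene ends did not overlap. Attached-only peaks between genes lay a median of 15221 bp from the nearest gene, and at most 477397 bp.

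Peaks at gene ends were the stronger attached-only peaks. Their median was 19 tags and 290 bp, against 12 tags and 192 bp inside genes and 12 tags and 195 bp between genes. Median fold ran the other way, at 13.79 at gene ends, 17.24 inside genes and 17.06 between genes. Shared peaks had a median of 26 tags at gene ends, 27 inside genes and 22 between genes.

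Because weak peaks made up most of the attached-only set, gene-end shares were also compared at matched tag counts. At 8 to 10 tags 9 of 60 attached-only peaks (15%) lay at a gene end, against 0 of 3 shared peaks. At 11 to 12 tags the counts were 9 of 68 (13.2%) and 3 of 7 (42.9%), with intervals of 6.23 to 23.6% and 9.90 to 81.6%, and at 13 to 18 tags 13 of 61 (21.3%, 11.9 to 33.7%) and 20 of 40 (50%, 33.8 to 66.2%). From 19 to 27 tags the order turned, with 27 of 42 attached-only peaks (64.3%, 48.0 to 78.4%) and 35 of 68 shared peaks (51.5%, 39.0 to 63.8%). At 28 tags or more the shares were 9 of 16 (56.2%) and 49 of 88 (55.7%). Only at 13 to 18 tags did the intervals of the attached-only and the shared peaks not overlap, by a narrow margin, with the attached-only share the lower one. Among peaks with an FDR of 100% the shares were 53 of 215 (24.7%) for attached-only and 48 of 88 (54.5%) for shared peaks. That comparison was not matched in tags, since the medians were 12 tags in these attached-only and 20.5 in these shared peaks.

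Gene starts were then taken from a RefSeq promoter table that carries strand and covers 23 chromosomes, which left 237 attached-only and 198 shared peaks. A summit lay within 1 kb of a gene start in 53 attached-only peaks (22.4%, 17.2 to 28.2%) and 76 shared peaks (38.4%, 31.6 to 45.5%). In the suspended list it was 2514 of 8612 peaks (29.2%). The 53 start peaks had a median of 20 tags, 314 bp and a fold of 12.19. The other 184 had medians of 12 tags, 191.5 bp and a fold of 17.24. At most 12 tags were held by 8 of the 53 start peaks and by 114 of the 184 others. Start peaks were also closer to suspended peaks, with a median gap of 30025 bp, against 84482 bp for the others.

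Around the start, 24 of the 53 summits lay upstream and 29 at or downstream of it. The median unsigned distance was 192 bp, and 31 summits lay within 250 bp. At 19 attached-only peaks at least 2 gene starts lay within 1 kb. Attached-only summits thus lay on both sides of the start.

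**Figure D4:**
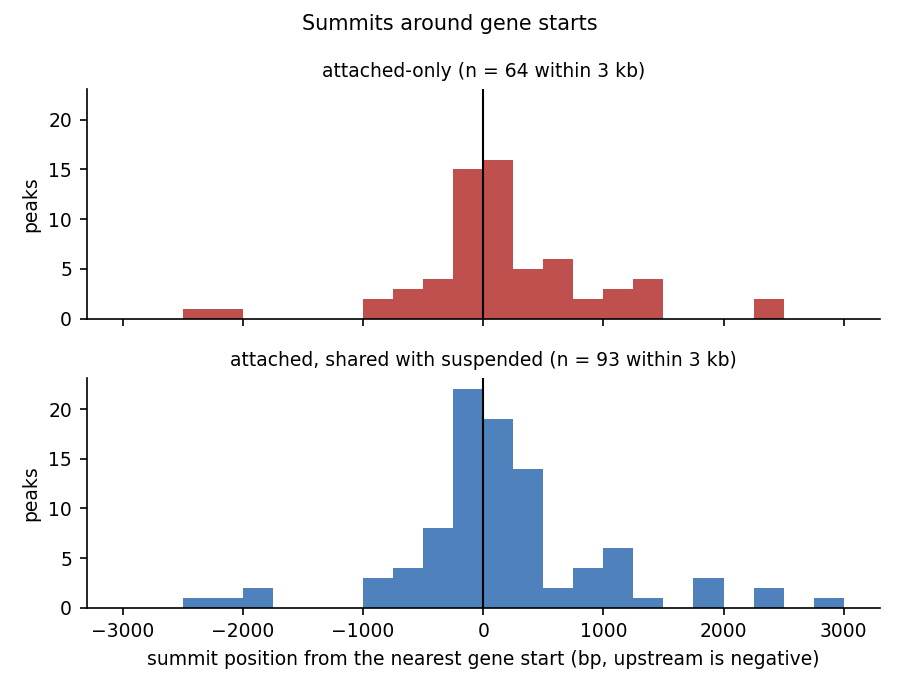
Number of peaks by summit position within 3 kb of the nearest gene start (bp, negative is upstream), for 64 attached-only and 93 shared peaks. In both sets most summits lie within 1 kb of the start, on both sides of it.

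By role, genes of cell division and chromatin with an attached-only start peak included BUB1B, a kinase of the spindle checkpoint, with 19 tags (11.4 to 29.7) and a summit 86 bp after the start. CDCA7, a cell division cycle associated gene, had 19 tags and a summit 192 bp before the start. MEN1, which encodes menin, had 21 tags 225 bp after the start, and CARM1, an arginine methyltransferase, 26 tags 40 bp after it. For RNA metabolism, DDX17 held 20 tags, DHX30 15 and WDR43, a factor of ribosome production, 21. For mitochondria, PDSS2, an enzyme of coenzyme Q synthesis, held 30 tags and NDUFAF1 19. All of these summits were within 1 kb of the named start. These genes were picked from the 53 for their known roles after their values were seen, so they do not show that any role was favoured.

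The peaks at the printed promoters held 11 to 38 tags. NCEH1 held 29 tags (19.4 to 41.6) with its summit 7 bp before the start, and CAB39 24 tags 131 bp before it. HSPA8 held 27 tags with a summit 133 bp before the start, inside the printed stretch. RPLP0 held 20 tags 93 bp after the start, with an FDR of 39.39%, and LAMP1 19 tags 329 bp before it. At RPLP0, LAMP1, HEXIM1 and CDKN2AIP the summit lay outside the printed stretch. ARF6 and CDKN2AIP held 15 tags each, and ZDBF2 11 tags at a fold of 24.7. The fold was 19.7 at ARF6, 17.03 at RPLP0 and 15.67 at CDKN2AIP, and it was 9.2 at NCEH1, 9.24 at CAB39 and 9.4 at LAMP1.

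By kind of gene, 49 attached-only summits (19.8%, 15.1 to 25.4%) lay within 1 kb of an end of a protein-coding gene, against 90 shared summits (43.7%). For lncRNA genes the counts were 18 and 26, for pseudogenes 5 (2.02%) and 1, for tRNA genes 2 and 1, and for snRNA genes 2 and 3. A summit can count under several kinds. A peak in FCGR2A, an Fc receptor gene, had its summit 659 bp before the start of the heat shock gene HSPA6. That peak had the tRNA genes TRD-GTC10-1 and TRG-GCC2-1 within 5 kb, and held 10 tags at a fold of 21.17. tRNA and snRNA genes have near-identical copies, so tags there are uncertain in place.

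Counted by gene, 170 protein-coding genes had an attached-only summit in them or within 5 kb, which is 0.848% of the 20037 in the table. Of those 170, 70 (41.2%, 33.7 to 49.0%) also had a suspended peak, against 28.6% of all protein-coding genes. They were long genes, with a median span of 61.79 kb, against 31.81 kb for genes with a shared peak and 24.11 kb for all. Gene length therefore moved with the 41.2%, and its part in it was not tested. RAP1GAP, a GTPase activator for RAP1, and PTPRN2, a phosphatase-like protein of secretory granules, also held a shared attached peak. ADPRHL1 and CPNE8 each held more than 1 attached-only summit in the gene or within 5 kb.

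The gene lists gave few members. Of 615 genes found from 18 lists, 9 (1.46%, 0.671 to 2.76%) had an attached-only peak in the gene or within 5 kb. The background was 0.848% of protein-coding genes. For autophagosome formation it was 1 of 34, UVRAG, a subunit of the BECN1 lipid kinase complex, with 13 tags (6.92 to 22.2). For MTOR and AMPK signalling it was 2 of 32. RICTOR, the defining subunit of MTOR complex 2, held 19 tags (11.4 to 29.7) and SESN1, a sestrin that restrains MTOR complex 1, held 12. For lysosome genes it was 1 of 29, LAMP1. No autophagy receptor (0 of 18) and no BCL2 family or apoptosis gene (0 of 34) had one.

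Lists of adhesion gave 0 of 32 for cell-matrix genes and 0 of 28 for junction and epithelial-mesenchymal transition genes. None was found in the lists of squamous epithelium (0 of 20), developmental homeobox genes (0 of 49) and core histones (0 of 37). The same held for snRNA genes (0 of 31), immediate early genes (0 of 28) and LRRC37 and NBPF copies (0 of 18). ISL2, whose attached-only peak is given above, is not in the homeobox list, so that count does not cover every homeobox gene. These counts stand beside the background of 0.848%, and no list is set apart by them. That background covers protein-coding genes only, so it is not a like measure for the snRNA genes.

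Among 28 genes of the B lineage and plasmacytoid dendritic cells, only CIITA, the coactivator of MHC class II genes, had an attached-only peak. That peak held 13 tags (6.92 to 22.2) at chr16:10895401-10895610, inside the gene. It makes 3.57% of the list, beside 0.848% of all protein-coding genes, and 1 gene does not set the list apart. ELF1 was the only one of 27 ETS factors, with 8 tags. TENM2, a teneurin of neuronal adhesion, was 1 of 36 in its list, with 12 tags, and RPLP0 was 1 of 77 ribosomal protein genes. Of the list members named here, TENM2 alone also had a suspended peak. The share was 41.2% among all protein-coding genes with an attached-only peak and 28.6% among all protein-coding genes. So few list members cannot be told from either share. Apart from RICTOR (82.88%) and RPLP0 (39.39%), every attached-only peak of the named members had an FDR of 100%.

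Attached-only peaks were unevenly spread over chromosomes. Chromosome 5 held most, with 35 of its 49 attached peaks (71.4%), followed by chromosome 1 with 30 of 57, chromosome 6 with 23 of 29 (79.3%), chromosome 12 with 13 of 21 and chromosome 7 with 12 of 21. Per Mb of chromosome, counted to its last gene, this was 0.193 on chromosome 5 and 0.135 on chromosome 6, against 0.0800 over all chromosomes. Suspended peaks were also dense on chromosome 5, at 4.54 per Mb against 2.91 over all. On chromosomes 17 and 19 attached-only peaks were the smaller share, 11 of 29 (37.9%) and 10 of 28 (35.7%). Chromosomes 9 (33.3% of 15 attached peaks) and 14 (25% of 4) had lower shares. Chromosome copy number was not measured here.

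**Figure D5:**
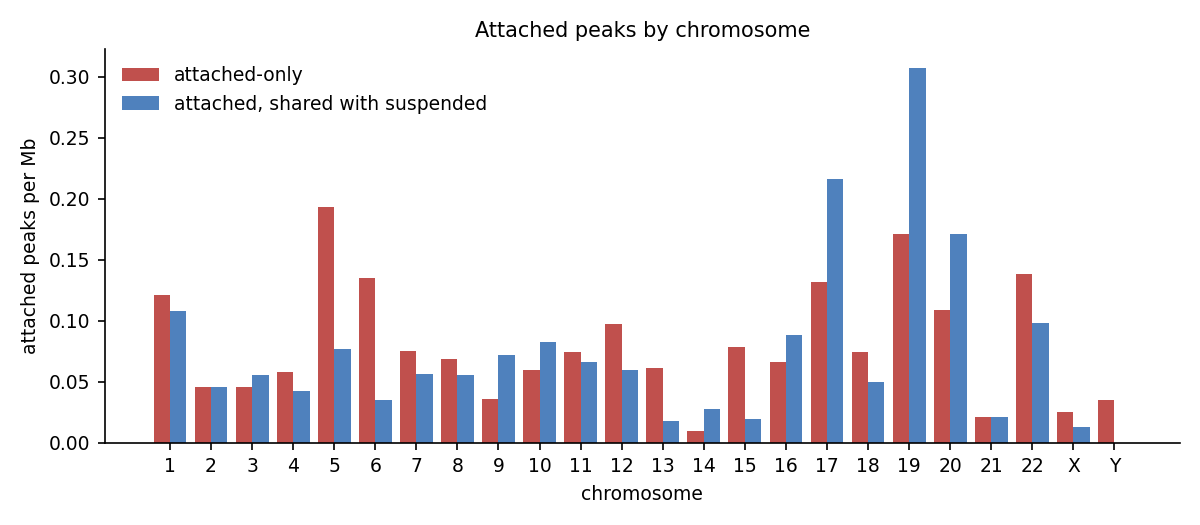
Attached-only and shared attached peaks per Mb of each chromosome, counted to its last gene. Attached-only peaks stand highest on chromosome 5 (0.193 per Mb, against 0.0771 for shared peaks), and shared peaks on chromosome 19 (0.171 per Mb attached-only, against 0.307 shared).

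The excess on chromosome 5 lay in its first 50 Mb, which held 22 attached-only peaks (8.91%, 5.67 to 13.2%), 7 shared peaks (3.40%, 1.38 to 6.88%) and 392 suspended peaks (4.37%). There 2 of the 22 lay at a gene end, 9 inside a gene and 11 between genes. The 7 shared peaks there were tall, with a median of 65 tags, against 17 in the attached-only peaks. From 20 to 30 Mb there were 10 attached-only and 0 shared peaks, beside 51 suspended peaks. No other 10 Mb window held as many attached-only peaks. None of these 10 lay at a gene end and 6 lay between genes, with 8 to 26 tags and folds of 8.41 to 28.23. Among them were peaks in CDH12 (12 tags) and CDH9 (15 tags) and one 35330 bp from CDH10 (16 tags), which encode cadherins of the nervous system. Outside the first 50 Mb of chromosome 5, 65 of 225 attached-only peaks (28.9%) lay at a gene end, against 101 of 199 shared peaks (50.8%). No 3 attached-only peaks fell within 100 kb of each other, and 5 neighbouring pairs did.

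Promoter sequence was compared over windows from 250 bases before to 50 after each gene start. Attached-only peaks overlapped 36 of 35116 windows (0.103%), by 33 peaks, and suspended peaks overlapped 2140 (6.09%). Shared peaks overlapped 64. A suspended peak also overlapped 1 of the 36 windows. This low count follows largely from the selection, since a suspended peak could enter such a window only beside the attached-only peak. The median GC content was 62.5% in the attached-only windows, 66.5% in shared, 65.7% in suspended and 58.7% in all windows. Median CpG counts per window were 24.5 in attached-only (range 3 to 51), 23.5 in shared, 26 in suspended and 14 in all windows. Promoters under attached-only peaks were thus rich in CpG beside all promoters, as were those under shared and suspended peaks.

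The letters GGAA, searched on both strands, were in 36 of 36 attached-only windows, 98.4% of shared, 97.5% of suspended and 95.5% of all windows, so they barely separate these sets. GAGGAA, which contains GGAA, was in 14 of 36 attached-only windows (38.9%, 23.1 to 56.5%), 51.6% of shared (38.7 to 64.2%), 34.4% of suspended and 27.9% of all windows. CGGAAGT, which also contains GGAA, was in 2 of 36 attached-only windows (5.56%, 0.680 to 18.7%), 15.6% of shared, 16.9% of suspended (15.4 to 18.6%) and 6.83% of all windows. The interval of the attached-only share held all 3 other shares, for GAGGAA and for CGGAAGT alike.

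Motifs of other factors were searched in the same way. TGANTCA, the AP-1 site, was in 3 of 36 attached-only windows (8.33%, 1.75 to 22.5%), 4.69% of shared, 3.93% of suspended and 7.71% of all windows. TGACGTC, from the cyclic AMP response element, was in 3 of 36 attached-only (8.33%), 7.81% of shared, 5.28% of suspended and 3.45% of all windows. Both CAGCACC and GGACAGC, parts of the element of the neuronal repressor REST, were in 0 of 36 attached-only windows (up to 9.74% by the exact interval), 7 of 64 shared windows (10.9%, 4.51 to 21.2%), 2.24% of suspended and 0.738% of all windows. With 36 windows, shares near the overall value could not be told from it. A match is a description of letters in the window, not a bound site.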

How the data were processed

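SPIB ChIP-seq peaks of attached and suspended SPIB-overexpressing H1703 cells were analysed from the 2 deposited peak lists, with 1 ChIP and 1 input library per condition. Per the file headers, the authors called peaks with MACS 1.4.2 at a p cutoff of 1e-05, with the matching input as control. The submitters' processing notes name hg38 as the build. The aligner was not given in the sources used here. MACS modelled fragments of 58 bp in attached and 63 bp in suspended cells, near the 50 bp tag size in the headers, and the effect on peak bounds was not tested. For each peak the authors deposited a tag count that is not normalized, and a fold, the ratio of ChIP to local background. They also deposited a score, whose column header is a spreadsheet error; from its position and lowest value it was read as minus 10 times the log10 of the peak p-value. The FDR is a percent from the authors' list. Fold, score and FDR describe peaks within a list only.

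Comparisons were made in Python 3.11.15 (pandas 2.3.3, numpy 2.4.6, SciPy 1.17.1). Plots were drawn in matplotlib 3.10.9. Counts carry exact Poisson and shares exact Clopper-Pearson 95% intervals. The overlap and position counts were checked on simulated peaks. A planned class by promoter, exon and intron could not be made, since the RefSeq gene table on GRCh38.p14 gives spans without strand or exons. A class by gene ends and a promoter table with strand were used in its place. The rule for named peaks took the 10 of highest fold, the 10 with most tags, the 5 widest, the 10 of lowest FDR, the 5 closest to and the 3 farthest from a suspended peak, the 5 shared peaks of smallest overlap, list members and chromosomes with most peaks. Other genes named at gene starts, printed promoters and genes of single regions were chosen after their values were seen. The members and gene lists were chosen with earlier results of these data known. Alternatives were the overlap rule, the authors' score, the position of a peak, the distance that counts as near and the genes used. The 18 lists had 616 distinct genes, of which 615 were found. A list member that the rule names is not reported here.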

Additional observations from a re-analysis of the deposited data

How the results depend on the processing

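Counting overlap only where at least 50% of the narrower peak was covered, or counting a suspended peak within 1 kb as shared, gave 250 and 231 attached-only peaks, and using only the upper 50% of suspended peaks by score gave 263, all close to 247. Using only the upper 50% of the 453 attached peaks by score left 76 of the 247, with a median of 16 tags and 249 bp. Most attached-only peaks thus lay in the lower 50% by score, and the main share of 54.5% depended on these weaker calls. The gene-end share was 43.7% within 5 kb and 19.8% with protein-coding genes only, beside 27.1%; both definitions differ by construction. Gene starts alone, an alternative chosen after seeing the data, gave 22.4%. The remaining settings moved the 5 measures less than their intervals. No paired analysis was possible because each condition had 1 ChIP library and no result comes from a test. Depth limits single peaks of 8 to 12 tags most.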
